A study of Mus musculus with 800 samples.

Results

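The nuclei described are those that carried a nuclear yellow fluorescent reporter, the histone fusion H2B-SYFP2, under the hSyn1 promoter or under the CMV promoter. They were chosen by the promoter named in the sample title, 40 hSyn1 and 40 CMV nuclei, and make up 80 of the 800 nuclei of the series, whose 20 vectors hold 40 nuclei each. All 80 came from C57Bl/6J mice and, per the labels, from the anterior lateral motor cortex, and each was sorted by flow cytometry for reporter fluorescence and read as 1 library by SMART-Seq v4, which copies full-length polyadenylated RNA. The hSyn1 vector is coded AiP13648 and the CMV vector AiP13967. Both were packaged in the PHP.eB capsid, and the series design gives 5e11 vector genomes per mouse, injection in young adulthood and sorting 3 to 4 weeks later for all vectors. There is no group without virus and no unsorted group here. Sorting keeps only nuclei bright enough to pass the gate, so the counts describe which nuclei carried visible reporter, not which nuclei took up virus. The labels name no animal, so each promoter is 1 sample, and no p-value is given between them.

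The hSyn1 promoter is a stretch of the human synapsin 1 gene, whose protein coats synaptic vesicles, and it is a common choice for restricting transgenes to neurons. The synapsin 1 promoter is a known target of REST, a repressor that is abundant outside neurons, binds a sequence called RE1 and recruits corepressors and histone-modifying enzymes. The CMV promoter comes from the immediate early region of human cytomegalovirus, is read by factors found in many cell types, and is known to be silenced in some tissues. PHP.eB is an engineered adeno-associated virus capsid that crosses from blood to brain in C57Bl/6J mice and reaches neurons and glia.

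The promoter of the mouse gene Syn1 is shown because it is the mouse relative of the element that drives the hSyn1 reporter. It is not the vector's own sequence, which is human. It covers the 250 bases before the start of the RefSeq transcript on the minus strand of GRCm38.p6, chrX:20920919-20921168. Capitals mark CAGCACC, the left part of an RE1 element, and TGACGTCA, the site of cyclic AMP response factors.
Syn1 promoter: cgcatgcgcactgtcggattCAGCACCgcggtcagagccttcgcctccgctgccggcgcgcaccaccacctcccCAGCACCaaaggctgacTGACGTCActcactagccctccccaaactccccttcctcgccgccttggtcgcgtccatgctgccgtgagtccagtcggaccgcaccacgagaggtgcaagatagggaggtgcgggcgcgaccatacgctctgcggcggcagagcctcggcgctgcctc
CAGCACC lies 230 to 224 and 176 to 170 bases before the start, and TGACGTCA 159 to 152 bases before it. Among 32851 mouse promoters of the same window, searched on both strands, 5.73% hold CAGCACC and 1.55% hold TGACGTCA. A match is a description of the letters and does not show that a factor binds there.

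Depth was close to equal. Totals ran from 19825 to 433611 counts per nucleus under hSyn1 (median 246497) and from 1267 to 496115 under CMV (median 289119). The libraries were made in series, and the series stand apart: all 40 hSyn1 nuclei and CMV numbers 1 to 8 are in series S40323, while CMV numbers 9 to 40 are in S40324. For 32 of 40 CMV nuclei the promoter and the library series therefore cannot be told apart, and the main results are also given for the 8 CMV nuclei of S40323. No 2 nuclei held identical values, and 8 index pairs occurred both in an hSyn1 and in a CMV library, in different series. Xist, the RNA of the inactive X chromosome, had no read in the 80 nuclei, and Y-linked genes had reads in 33 hSyn1 and 31 CMV nuclei.

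Neurons were defined by Slc17a7, which loads glutamate into synaptic vesicles of excitatory cells in cortex, or by Gad1 or Gad2, which make GABA in inhibitory neurons, at a CPM (counts of a gene per 1e6 counts of the nucleus) of 20 or more. By this rule 35 of 40 hSyn1 nuclei were neurons (87.5%, exact 95% interval 73.2 to 95.8%), against 19 of 40 CMV nuclei (47.5%, 31.5 to 63.9%). Glutamatergic nuclei numbered 24 under hSyn1 (60%, 43.3 to 75.1%) and 16 under CMV (40%, 24.9 to 56.7%), and GABAergic nuclei 11 (27.5%, 14.6 to 43.9%) and 3 (7.5%, 1.57 to 20.4%). No nucleus held RNA of both kinds at that level. The intervals cover counting error only and treat nuclei as independent draws. The intervals for all neurons did not overlap, and those for glutamatergic nuclei and for GABAergic nuclei did.

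The sets also differed in astrocytes, the support cells that clear glutamate and feed neurons. Of 40 CMV nuclei, 16 held at least 5 of 18 astrocyte markers at 20 CPM or more (40%, 24.9 to 56.7%). None of 40 hSyn1 nuclei did, which allows a share of up to 8.81%. The cut of 5 markers was set after the data were seen, so these shares and intervals describe the nuclei at that cut. The 16 CMV nuclei held 7 to 14 of the markers (median 12) with a summed marker level of 8859 to 49872 CPM (median 26808), while no hSyn1 nucleus held more than 4, with a summed level of 0 to 6083 CPM (median 140). The 16 nuclei were chosen by these markers, so their summed level is a description. In hSyn1 11 of the 18 markers had no read at all, Aqp4, the astrocyte water channel, and Gja1, a gap junction protein, among them. A single CMV nucleus, number 28, held oligodendrocyte markers, with Mog, a myelin protein, at 2790 CPM, and Mog had no read in hSyn1. CMV number 16 was nearly empty, with 1267 counts.

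The gene rule and the rest of the RNA differed in some nuclei of both sets. Meg3, a long noncoding RNA abundant in neuronal nuclei, was at 4344 to 22221 CPM in all 40 hSyn1 nuclei. The 5 hSyn1 nuclei outside the rule, numbers 4, 8, 15, 19 and 26, thus held Meg3 but little or no Slc17a7, Gad1 or Gad2. Numbers 2, 3, 4, 25, 29 and 32 of CMV did as well. In the other direction, CMV numbers 26, 27 and 39 passed as neurons by Gad2 at 835 CPM or Slc17a7 at 169 and 745 CPM, with no Meg3 read, and held Slc1a3, the glial glutamate transporter, at 5203, 4117 and 10956 CPM. Counting as neurons the nuclei with Meg3 at 1000 CPM or more and few glial markers, a rule chosen after the data were seen, gave 40 of 40 hSyn1 nuclei (100%, 91.2 to 100%) and 22 of 40 CMV nuclei (55%, 38.5 to 70.7%). The 40 include hSyn1 numbers 8 and 13, with only 121 and 433 genes detected. CMV number 28 held Meg3 at 3606 CPM and was left out by its oligodendrocyte markers, so Meg3 alone would have counted it.

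Few nuclei lay near the threshold. The lowest hSyn1 nuclei inside the rule held 32.5 and 78.4 CPM of their leading gene and the highest outside it 15.8 and 15.3. For CMV these were 59.6 and 169 inside and 18.9 and 16.6 outside. None of the 3 genes had a read in 3 hSyn1 and 18 CMV nuclei.

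**Figure D1:**
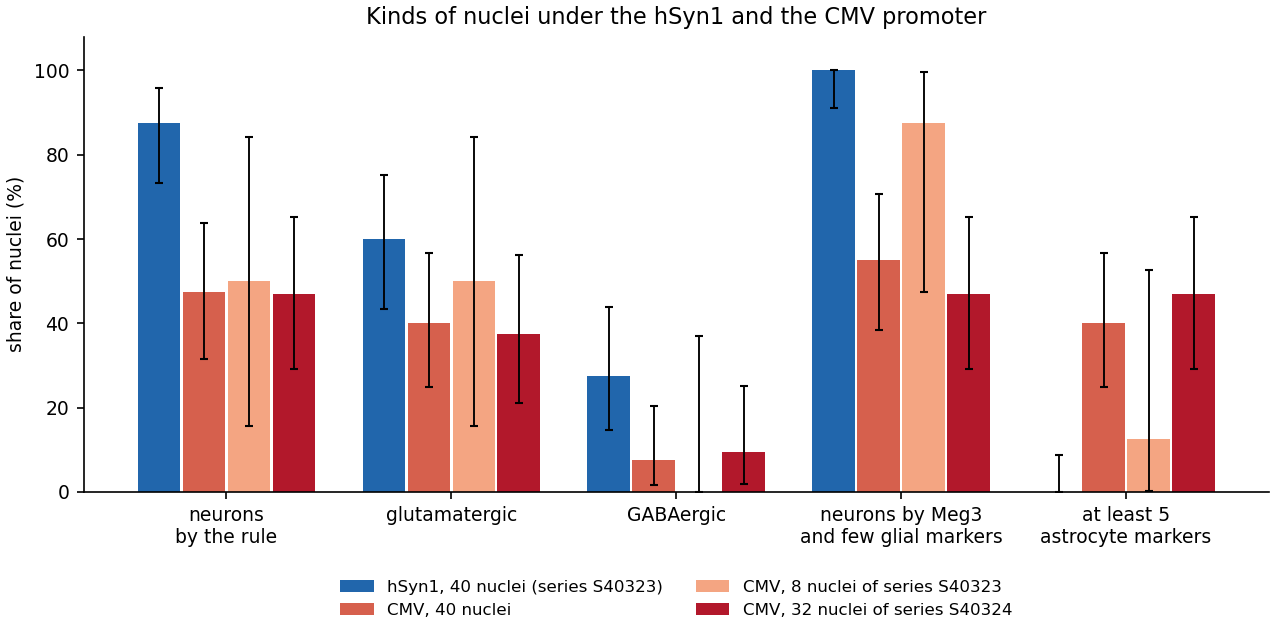
Share of nuclei of each kind in percent, with exact 95% binomial intervals, for all 40 hSyn1 nuclei, all 40 CMV nuclei, and the CMV nuclei of each library series. Astrocyte-marker nuclei were 0% under hSyn1 and 40% under CMV, and 12.5% in the 8 CMV nuclei that share a library series with hSyn1.

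The kinds were unevenly spread over the CMV nuclei. In series S40323 the 8 CMV nuclei held 4 neurons by the rule (50%, 15.7 to 84.3%), 7 by Meg3 (87.5%, 47.3 to 99.7%) and 1 astrocyte-marker nucleus (12.5%, 0.316 to 52.7%). Each of these intervals overlapped that of hSyn1. In series S40324 astrocyte-marker nuclei were 15 of 32 (46.9%, 29.1 to 65.3%). Over runs of 8 title numbers, 1, 1, 4, 2 and 8 CMV nuclei held astrocyte markers, so numbers 33 to 40 were all of this kind, and without them the share was 25%. The 5 runs of hSyn1 held 6, 7, 7, 7 and 8 neurons by the rule. Whether the uneven spread comes from animals, sorts or plates was not tested.

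**Figure D2:**
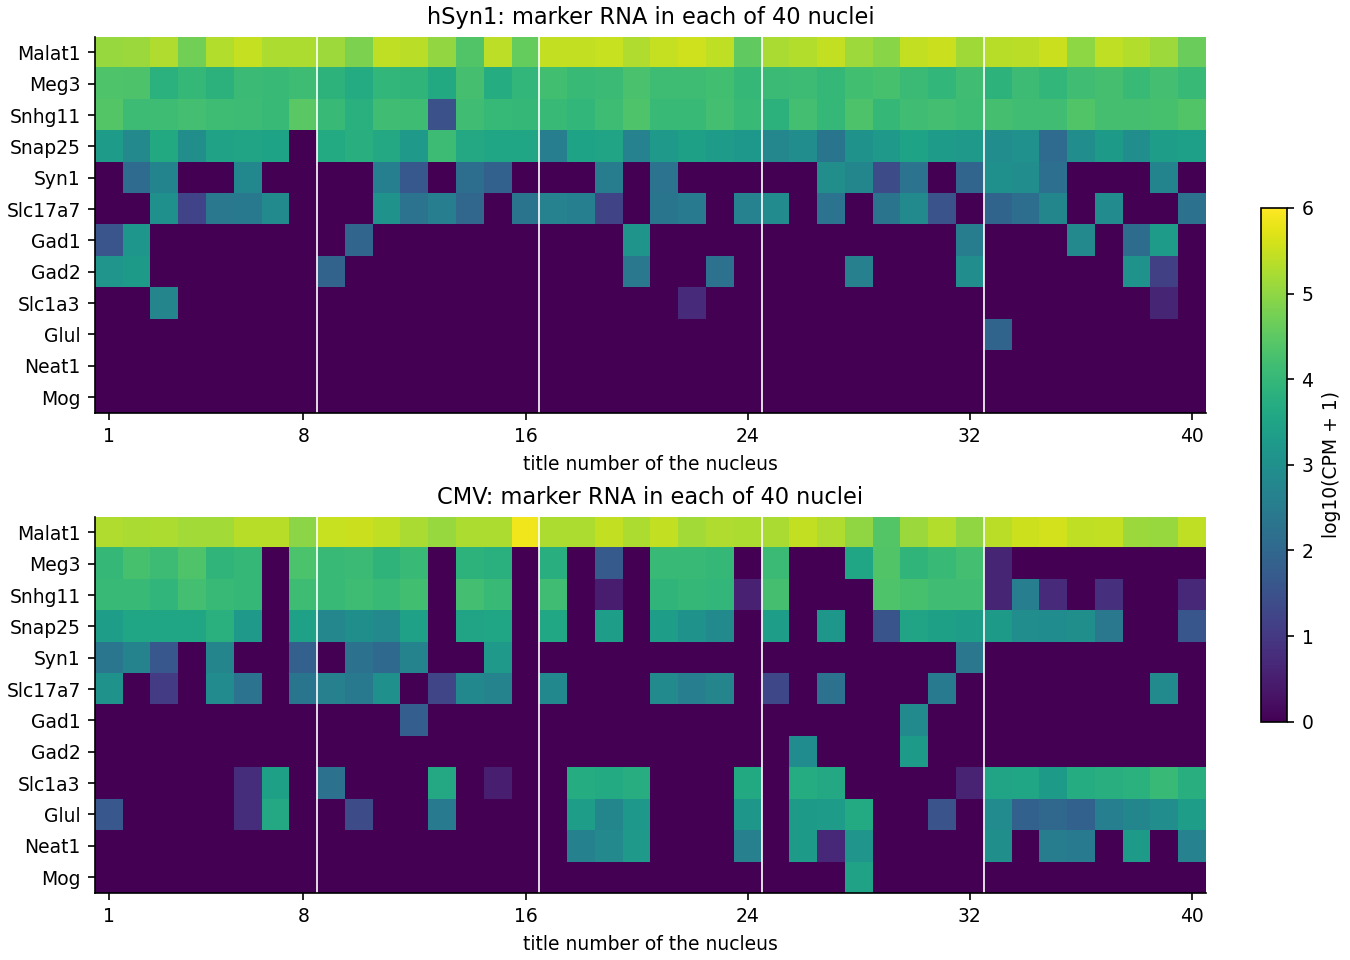
Level of 12 marker RNAs, as log10(CPM + 1), in each of the 40 hSyn1 nuclei (upper panel) and 40 CMV nuclei (lower panel) in order of title number, with white lines between runs of 8. Meg3 fills the hSyn1 panel, whereas in the CMV panel it is low or absent where Slc1a3 and Glul are present, as in numbers 33 to 40.

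Against the other 18 vectors, hSyn1 and CMV stood out for glutamatergic nuclei. These vectors held 0 to 11 such nuclei (median 3), fewer than the 24 of hSyn1 and the 16 of CMV in every case. Their share of neurons by the rule ran from 17.5 to 92.5% (median 63.75%), with 2 vectors above hSyn1 and 12 above CMV. By Meg3 13 of the 18 were above CMV, and their highest share was 97.5%. None could be above hSyn1, which was at 100% by that rule. Of the 18, 2 held more astrocyte-marker nuclei than CMV.

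Across the whole sets, RNA of astrocytes was abundant in CMV and low in hSyn1. Summed over the 18 astrocyte markers the level was 12862 CPM in CMV and 750 CPM in hSyn1. Reads were summed over the 40 nuclei of each promoter and divided by the summed total. A gene was compared if it reached 20 CPM in either sum and had a read in 25% of that promoter's nuclei. Where a sum had fewer than 3 counts, the fold was taken against a floor of 3 counts. A gene read in few nuclei of one set enters only through the set where it is high, which bears on every list count given here. Of 3973 genes compared, 504 (12.7%) were at least 2-fold higher in CMV and 915 (23%) in hSyn1, 35.7% in either direction. That split moved to 599 and 754 with TMM scaling and to 616 and 731 with DESeq2 scaling, which shifted the median of all genes by 0.16 and 0.19 on the log2 scale. The split turned to 1157 in hSyn1 and 1601 in CMV with the CMV nuclei of S40323 alone, and to 695 and 860 without the astrocyte-marker nuclei. List counts for the whole sets are to be read against the 12.7% and 23% of all genes. The 11 astrocyte markers compared were higher in CMV, and 9 of them entered through CMV alone. They had a median log2 ratio of hSyn1 to CMV of -6.85, against 0.26 for all genes.

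Gpr37l1 (chr1:135160234-135167681 on the minus strand of mm10), a receptor of astrocytes, ran from 0 through a median of 0 to 9594 CPM over the CMV nuclei and had no read in hSyn1. Reads came from 14 CMV nuclei, and the summed level was 1685 CPM (1661 to 1708), 5534-fold higher than hSyn1 at the floor. Such intervals on sums cover the counting of reads only, not the spread over nuclei. Slc1a3 (chr15:8634124-8710764, minus strand) ran from 0 through 1.07 to 10956 CPM in CMV and from 0 through 0 to 548 CPM in hSyn1. It had reads in 20 CMV and 3 hSyn1 nuclei, and its summed level was 2230 CPM in CMV and 19.4 CPM in hSyn1, 115-fold apart. The single highest hSyn1 nucleus gave 99.0% of the hSyn1 reads.

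Other astrocyte genes followed the same division. Aldoc, the brain form of aldolase, was at 2521 CPM in CMV and 90.2 CPM in hSyn1, and Ntsr2, a neurotensin receptor, at 1596 and 71.0 CPM. Gja1 and Gjb6, the connexins of astrocyte gap junctions, were at 660 and 716 CPM in CMV with no read in hSyn1. S1pr1, a sphingosine 1-phosphate receptor, Plpp3, a phospholipid phosphatase, Slc7a10, an amino acid transporter, Acsbg1, an acyl-CoA synthetase, and Cyp4f15 had no read in hSyn1 and 342 to 740 CPM in CMV. Slco1c1, a thyroid hormone transporter, was at 614 CPM in CMV and had 1 read in hSyn1. Slc1a2, the main glutamate transporter of the forebrain, was at 1957 CPM in CMV and 518 CPM in hSyn1, where 16 nuclei held it.

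Within series S40323 alone the 8 CMV nuclei held Slc1a3 at 319 CPM and Gpr37l1 at 538 CPM, the latter from 1 nucleus. Slc1a2 was then 0.33 higher in hSyn1 on the log2 scale. Without the 16 astrocyte-marker nuclei CMV held Slc1a3 at 7.36 CPM and Gpr37l1 at 0, against 19.4 CPM and 0 in hSyn1.

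**Figure D3:**
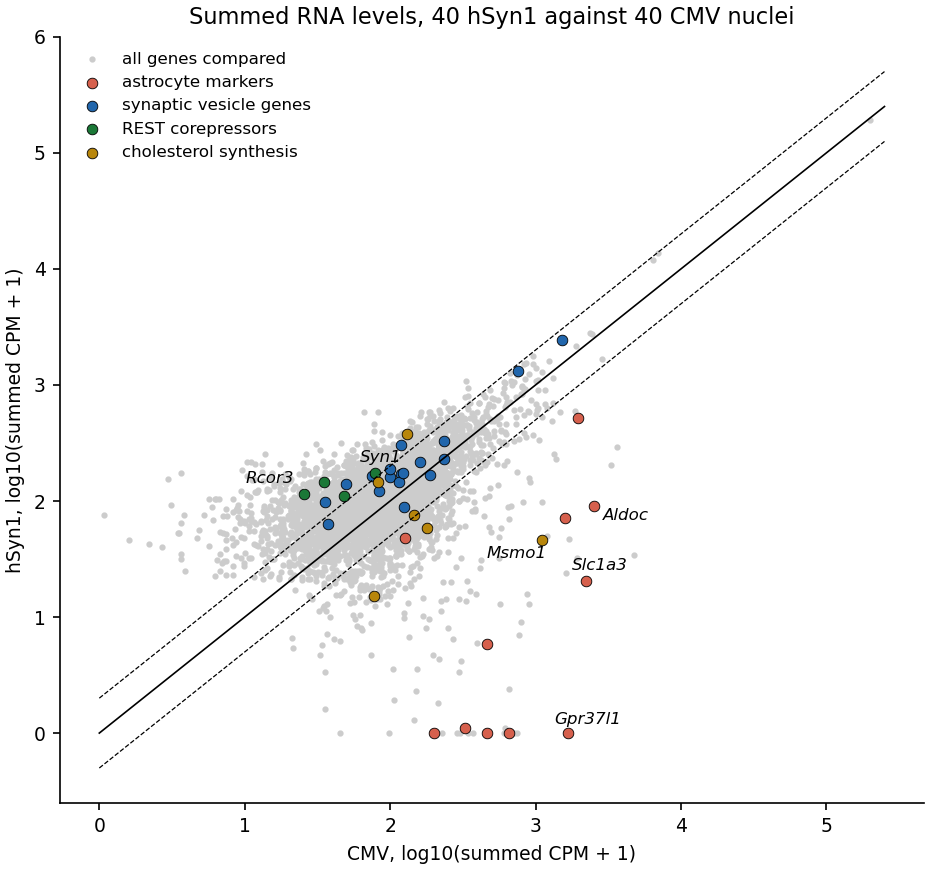
Summed level of each compared gene over the 40 hSyn1 nuclei (vertical) and the 40 CMV nuclei (horizontal), both as log10(summed CPM + 1), with the line of equal level and dashed lines at 2-fold. Astrocyte markers lie to the right of the lower dashed line, Gpr37l1 at 0 on the hSyn1 axis, while synaptic vesicle genes lie near or above the line of equal level.

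Genes of other functions also stood higher in CMV. Of 6 cholesterol synthesis genes compared, 3 were higher in CMV and 1 in hSyn1; Msmo1, a sterol oxidase of that pathway, was at 1105 CPM in CMV and 45.6 CPM in hSyn1. Neat1, the long noncoding RNA that builds paraspeckles, had 301 CPM from 12 CMV nuclei and no read in hSyn1. The 12 nuclei were all in series S40324 and held astrocyte markers or, for number 28, oligodendrocyte markers. Grin2c, an NMDA receptor subunit, had 285 CPM from 13 CMV nuclei and none in hSyn1, and Fgfr1, a growth factor receptor known to aid entry of adeno-associated virus, was at 222 and 12.8 CPM. Of 9 viral receptors and entry factors compared, 3 were higher in CMV and 2 in hSyn1, against 12.7% and 23% of all genes.

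Genes of neurons were among those higher in hSyn1, Rian, Gria3 and Kcnh7 by 2.37-fold to 3.63-fold. Rian (chr12:109603940-109661716, plus strand), an imprinted long noncoding RNA from the same cluster as Meg3, ran from 0 through 574 to 3413 CPM over hSyn1 nuclei and from 0 through 13.8 to 1721 CPM over CMV nuclei. The ranges overlapped, and the summed levels were 586 CPM in hSyn1 and 161 CPM in CMV, 3.63-fold apart. Gria3, an AMPA receptor subunit, ran from 0 through 585 to 2538 CPM in hSyn1 and from 0 through 0 to 2228 CPM in CMV, with sums of 808 and 341 CPM. Kcnh7, a potassium channel of the ether-a-go-go group, had reads in 27 hSyn1 and 14 CMV nuclei, at 484 and 136 CPM.

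Counts for groups of neuronal genes are read against the background of 23%. Of 18 synaptic vesicle genes compared, 4 were at least 2-fold higher in hSyn1 and none in CMV, among them Syp, synaptophysin, at 165 against 74.6 CPM, and Rab3a, a vesicle GTPase, at 302 against 118 CPM. Of 11 neuronal genes known as REST targets 3 were higher in hSyn1 and none in CMV. Among 11 ionotropic glutamate receptors 3 were higher in hSyn1, Grin2a at 365 against 128 CPM among them, and Grin2c was higher in CMV. Within series S40323 Syp and Grin2a did not keep their direction. GABA-A receptors gave 4 of 8 higher in hSyn1 and 1 in CMV, with Gabrd, the delta subunit, at 583 against 65.6 CPM, 59.2% of the hSyn1 reads being from 1 nucleus. Sodium and calcium channels gave 4 of 16 higher in hSyn1 and 1 in CMV, with Scn3a at 142 against 38.6 CPM. Apart from the GABA-A receptors, the shares higher in hSyn1 were close to the 23% of all genes.

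Of the 12 genes of REST and its corepressors only 4 could be compared, and these were at least 2-fold higher in hSyn1. Rcor3 and Kdm1a entered through hSyn1 alone. Summed over all 12 genes the level was 780 CPM in hSyn1 and 634 CPM in CMV. Rcor3 (chr1:192098546-192138062, minus strand), of the CoREST family, had reads in 14 hSyn1 and 7 CMV nuclei, at 114 and 24.4 CPM. Kdm1a, the histone demethylase LSD1, was at 144 and 33.9 CPM, and Ehmt1 and Ehmt2, which methylate histone H3, at 110 and 46.9 and at 175 and 78.1 CPM. Rest itself had no read in any of the 80 nuclei.

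Of the general marker RNAs, Slc17a7, Syn1 and Malat1 differed by less than 2-fold. Gad1 and Gad2, read in too few nuclei to enter the comparison, differed by more. Slc17a7 (chr7:45163949-45176142, plus strand) ran from 0 through 161 to 1215 CPM in hSyn1 and from 0 through 0 to 1169 CPM in CMV, with sums of 261 CPM (251 to 272) and 224 CPM (215 to 232). Its sums were close although more hSyn1 nuclei held it, 26 against 19. Gad1 was at 162 CPM from 8 hSyn1 and 19.8 CPM from 2 CMV nuclei, and Gad2 at 137.5 CPM from 9 and 65.4 CPM from 2. Syn1 (chrX:20860511-20921004, minus strand) had reads in 18 hSyn1 and 10 CMV nuclei, at 173 and 122 CPM. Malat1, a nuclear RNA of all cell types, was at 191674 CPM in hSyn1 and 200953 CPM in CMV.

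Upper layer genes of the cortex were among those higher in hSyn1, 4 of 7 compared, against 2 higher in CMV. Calb1, the calcium buffer calbindin, had reads in 17 hSyn1 and 5 CMV nuclei, at 209 and 16.4 CPM, 12.7-fold apart. Rasgrf2, a Ras exchange factor of upper layer neurons, had reads in 18 and 5 nuclei, at 319 and 73.9 CPM, and 96.9% of the CMV reads came from 1 nucleus.

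Ranked by ratio, the genes highest in hSyn1 included Pcbp4, an RNA-binding protein, at 75 CPM from 13 nuclei with 1 read in CMV. Cdh13, a cadherin, was at 153 and 1.96 CPM, Fbxl4, an F-box protein, at 90.5 and 2.13 CPM, and Spats2l at 103 and 4.69 CPM. Reads came from 10 to 14 hSyn1 nuclei and 1 to 4 CMV nuclei for each.

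The 16 astrocyte-marker nuclei, sorted for reporter fluorescence under CMV, are described beside the CMV neurons. Of these, 15 came from series S40324, which holds no hSyn1 nuclei, so promoter and series cannot be told apart for them. Under CMV, 22 nuclei held Meg3 with at most 2 astrocyte markers and 16 held at least 7, and these were set side by side with the 40 hSyn1 nuclei. Of 4553 genes compared between the 2 CMV kinds, 2359 (51.8%) were at least 2-fold higher in the neurons and 852 (18.7%) in the astrocyte-marker nuclei. The kinds were defined by Meg3 and astrocyte markers, so these genes and those that move with them are a description. The list counts are to be read against these high shares.

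Of 11 genes known as REST targets, 9 were at least 2-fold higher in CMV neurons than in astrocyte-marker nuclei and none lower. Syn1 had no read in these 16 nuclei, against 231 CPM in the CMV neurons, 402-fold higher against the floor, and 173 CPM in hSyn1. Scn2a, a sodium channel, L1cam, an adhesion protein, and Calb1 had none either. Gria2, an AMPA receptor subunit on the same list, was read in all 16 astrocyte-marker nuclei: its summed level was 2215 CPM in the astrocyte-marker nuclei, 2810 CPM in the CMV neurons and 2725 CPM in hSyn1. Snap25, a release protein, was at 551, 2399 and 2442 CPM, with reads in 8 of the 16 astrocyte-marker nuclei.

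The Rest gene had no read in the astrocyte-marker nuclei either. The corepressors Rcor3 and Kdm1a were at 1.34 and 0.192 CPM there, each from 1 nucleus, while Sin3b was at 227 CPM from 4 nuclei. Activity genes were read in the neurons: Egr1, Nr4a1, Arc and Fos had no read in the 16 astrocyte-marker nuclei, and 6 of 6 compared were higher in CMV neurons. Synaptic vesicle genes gave 13 of 16 higher in neurons and none in the astrocyte-marker nuclei. Voltage-gated sodium and calcium channels gave 14 of 16 and 1.

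In the other direction, 8 of 10 cholesterol synthesis genes were higher in the astrocyte-marker nuclei and none in the neurons. Msmo1 ran from 0 through 2349 to 6960 CPM there, with reads in 15 of 16 nuclei, and was at 76.0 CPM in the CMV neurons and 45.6 CPM in hSyn1. All 5 mitochondrially encoded genes compared were higher, with mt-Co1 at 1071 CPM against 7.28 CPM in CMV neurons. Mitochondrial RNA is made outside the nucleus, and its part in the other differences was not tested. Glul, glutamine synthetase, was read in all 16, at 1155 CPM, against 4.85 CPM in CMV neurons and 1.42 CPM in hSyn1.

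Receptors and entry factors of adeno-associated virus were read in both kinds: 5 of 10 compared were higher in the astrocyte-marker nuclei and 3 in the CMV neurons. AU040320, the mouse gene of the general receptor AAVR, was at 160 CPM from 3 of 16 astrocyte-marker nuclei, 90.9 CPM from 6 of 22 CMV neurons and 69.8 CPM from 11 of 40 hSyn1 nuclei. Itgav, an integrin subunit known as a coreceptor, was at 514, 59.5 and 97.1 CPM. Tm9sf2, an entry factor of the Golgi, was at 435, 55.5 and 86.8 CPM. Ly6a, the receptor of PHP.eB on brain vessels, had no read in any of them.

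Of 10 factors with sites in the CMV enhancer, 4 were higher in CMV neurons and 3 in the astrocyte-marker nuclei, with a median log2 ratio of 0.02 against 1.13 for all genes. Nfib, a nuclear factor I protein, was at 313, 296 and 276 CPM in CMV neurons, CMV astrocyte-marker nuclei and hSyn1 nuclei. Nfia was at 1.13, 192 and 37.5 CPM. Genes of the interferon response such as Isg15, Ifit2, Ifit3 and Irf7 had no read in any of the 3 kinds.

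The neurons of both promoters were compared next. Both sets were chosen by neuronal genes, so the rule itself limits a division between neurons and astrocytes. The CMV set still held 3 astrocyte-marker nuclei. Of 4752 genes compared between 35 hSyn1 and 19 CMV neurons by the rule, 854 (18%) were at least 2-fold higher in hSyn1 and 925 (19.5%) in CMV, 37.4% in either direction, with a median log2 ratio of -0.05. For 391 of these 1779 genes at least 50% of the reads in the higher set came from 1 nucleus. List counts for these neurons are to be read against the 18% and 19.5% of all genes. Slc17a7 was at 289 CPM in hSyn1 and 467 CPM in CMV neurons, Syn1 at 180 and 220 CPM, and Malat1 at 189028 and 199139 CPM, all under 2-fold.

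The neuron sets differed in makeup. GABAergic nuclei were 11 of 35 under hSyn1 (31.4%, 16.9 to 49.3%) and 3 of 19 under CMV (15.8%, 3.38 to 39.6%), 1 of these 3 with astrocyte markers. Gad1 was at 179 and 41.5 CPM and Gad2 at 152 and 137 CPM. Grik1, a kainate receptor subunit, had 135 CPM from 9 hSyn1 neurons and no read in CMV, 251-fold against the floor. It had no read in the glutamatergic hSyn1 nuclei. Reln, the secreted protein reelin, was at 146 CPM from 9 and 9.13 CPM from 2 neurons, and at 44.9 and 10.5 CPM in the glutamatergic nuclei alone.

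The 3 astrocyte-marker nuclei within the CMV neurons carried most glial RNA of that set. Slc1a3 was at 1044 CPM in CMV neurons and 9.87 CPM without them, against 21.5 CPM in hSyn1. Glul was at 236 and 6.30 CPM, against 1.57 CPM. Msmo1 was at 431 and 53.4 CPM, against 34.7 CPM.

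Upper layer genes were higher in hSyn1 neurons for 3 of 7 compared, with 1 higher in CMV. Rasgrf2 (chr13:91880400-92131656, minus strand) ran from 0 through 0 to 2011 CPM over 35 hSyn1 neurons and from 0 through 0 to 81.9 CPM over 19 CMV neurons. Reads came from 17 and 3 nuclei, and the sums were 310 and 4.30 CPM, 72.2-fold apart. With neurons taken by Meg3 the ratio was 1.19 on the log2 scale, against 6.17, with 1 CMV nucleus outside the rule holding Rasgrf2 at 3647 CPM. Calb1 (chr4:15881264-15908064, plus strand) had reads in 13 and 2 neurons, at 168 and 20.2 CPM, and Cux1, a transcription factor of upper layers, in 10 and 3, at 62.6 and 16.1 CPM. In neurons of the other 18 vectors Calb1 was above CMV in all 18 and above hSyn1 in 14, and Rasgrf2 was above CMV in 16 and above hSyn1 in none. Those neurons were mostly GABAergic, 7 to 29 per vector against 0 to 11 glutamatergic, unlike those of hSyn1 and CMV. Here and below, counts of vectors above CMV use the CMV neurons without astrocyte-marker nuclei. The part of cell kind in these positions was not tested.

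Of 6 REST corepressor genes compared 3 were higher in hSyn1, against 18% of all genes, none in CMV, and 3 differed by less than 2-fold. Rcor3 had reads in 11 and 3 neurons, at 110 and 7.70 CPM, Kdm1a in 14 and 5, at 137 and 40.1 CPM, and Ehmt1 in 11 and 5, at 115 and 39.9 CPM. For Rcor3 and Kdm1a all 18 other vectors, whose neurons were mostly GABAergic, were above the CMV neurons, at 17.1 to 218 and 49.7 to 160 CPM. In series S40323 Kdm1a was at 109 CPM in the 4 CMV neurons, less than 2-fold below hSyn1, and Rcor3 at 7.95 CPM. REST targets themselves gave 1 higher in each direction of 11, Calb1 in hSyn1 and Stmn2, a microtubule regulator, in CMV at 350 against 163 CPM.

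Rian was at a lower summed level in CMV neurons, with ranges that overlapped. It was read in 32 of 35 hSyn1 and 16 of 19 CMV neurons, ran from 0 through 590 to 3413 CPM and from 0 through 187 to 752 CPM, and summed to 570 and 210 CPM. Without the astrocyte-marker nuclei CMV was at 246 CPM, and in S40323 at 350 CPM, less than 2-fold below hSyn1. In the mostly GABAergic neurons of the other 18 vectors Rian was at 455 to 869 CPM, all above CMV and 16 above hSyn1.

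Of 18 activity genes 5 could be compared, and 2 of them were higher in CMV neurons, against 19.5% of all genes, and none in hSyn1. In the whole sets none of 3 compared differed 2-fold. Egr1, a transcription factor induced by activity, had reads in 3 of 35 hSyn1 and 7 of 19 CMV neurons, at 19.5 and 203 CPM, 10.4-fold apart. Nr4a1, another such factor, had reads in 12 and 8, at 65.9 and 218 CPM. In the mostly GABAergic neurons of the other vectors Egr1 was at 0 to 450 CPM, 15 of 18 above hSyn1 and 2 above CMV.

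Genes for silencing viral promoters gave 4 of 10 higher in CMV neurons and 2 in hSyn1, against 19.5% and 18% of all genes. Setdb1, a histone H3 methyltransferase, was at 33.95 CPM in hSyn1 and 147 CPM in CMV, but had no read in the 4 CMV neurons of S40323. Morc2a, which acts with the HUSH silencing complex, was at 47.1 and 175 CPM. Hdac3, a histone deacetylase, was at 175 and 47.4 CPM.

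Synaptic vesicle genes gave 5 of 18 higher in hSyn1 and 1 in CMV, against 18% and 19.5% of all genes. Rab3a at 335 against 129 CPM and Cplx1, complexin, at 156 against 29.7 CPM were among those higher in hSyn1. Sv2b was higher in CMV, at 222 against 106 CPM. Of 8 glutamatergic markers, Sv2b and Neurod6, a transcription factor at 50.5 against 24.3 CPM, were higher in CMV and none in hSyn1. Both turned to the other direction without CMV numbers 9 to 16. Kcnh7 was at 471 and 209 CPM, and 437 CPM in the CMV neurons of S40323. Gabrd was at 644 and 73.2 CPM. Genes read in 10 or 11 hSyn1 neurons and in no CMV neuron included Fbxl4 at 98.5 CPM and Far2, a fatty acyl reductase, at 93.7 CPM. Chst12, a sulfotransferase, was read in 5 CMV neurons at 61.7 CPM and in no hSyn1 neuron.

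The glutamatergic nuclei were also compared alone, which leaves GABAergic nuclei out of both sets. Between 24 hSyn1 and 16 CMV glutamatergic nuclei, 1016 of 5422 genes (18.7%) were at least 2-fold higher in hSyn1 and 1309 (24.1%) in CMV, 42.9% in either direction, with a median log2 ratio of -0.10. For 756 of these 2325 genes at least 50% of the reads came from 1 nucleus. List counts for glutamatergic nuclei are to be read against the 18.7% and 24.1% of all genes. None of 9 glutamatergic markers differed 2-fold, and their median log2 ratio was 0.01. Slc17a7, by which both sets were chosen, ran from 32.5 through 286 to 1215 CPM under hSyn1 and from 169 through 509 to 1169 CPM under CMV. Syn1 was at 199 and 233 CPM.

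Of 7 upper layer genes compared 4 were higher in hSyn1 glutamatergic nuclei, against 18.7% of all genes, and none in CMV. Rasgrf2, Calb1 and Cux1 entered the comparison through hSyn1 alone. Rasgrf2 was read in 10 of 24 and 2 of 16 nuclei, ran from 0 through 0 to 2011 CPM and from 0 through 0 to 81.9 CPM, and summed to 361 and 4.85 CPM, 74.5-fold apart. Lamp5 (chr2:136052239-136069917, plus strand), a membrane protein of upper layer neurons and some interneurons, was read in 13 and 6 nuclei, ran from 0 through 74.5 to 1509 CPM and from 0 through 0 to 1337 CPM, and summed to 381 and 155.5 CPM. Calb1 was read in 9 and 2 nuclei, at 126 and 23.8 CPM, and Cux1 in 8 and 2, at 66.3 and 15.6 CPM.

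Rasgrf2 reached 20 CPM in 9 of 24 hSyn1 nuclei (37.5%, 18.8 to 59.4%) and 1 of 16 CMV nuclei (6.25%, 0.158 to 30.2%). At least 2 of Rasgrf2, Lamp5 and Calb1 did so in 8 of 24 (33.3%, 15.6 to 55.3%) and 1 of 16 (6.25%, 0.158 to 30.2%). At least 1 of them did so in 14 (58.3%, 36.6 to 77.9%) and 7 (43.75%, 19.8 to 70.1%). Each pair of intervals overlapped, and the difference between the shares was not tested. In the 4 CMV glutamatergic nuclei of S40323 Rasgrf2 had no read and Calb1 was at 0.883 CPM, while Lamp5 was at 349 CPM and Cux1 at 63.6 CPM, close to hSyn1. Deep layer genes gave 1 of 7 higher in hSyn1, Bcl11b, a transcription factor, at 48.2 and 20.9 CPM, and none in CMV.

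**Figure D4:**
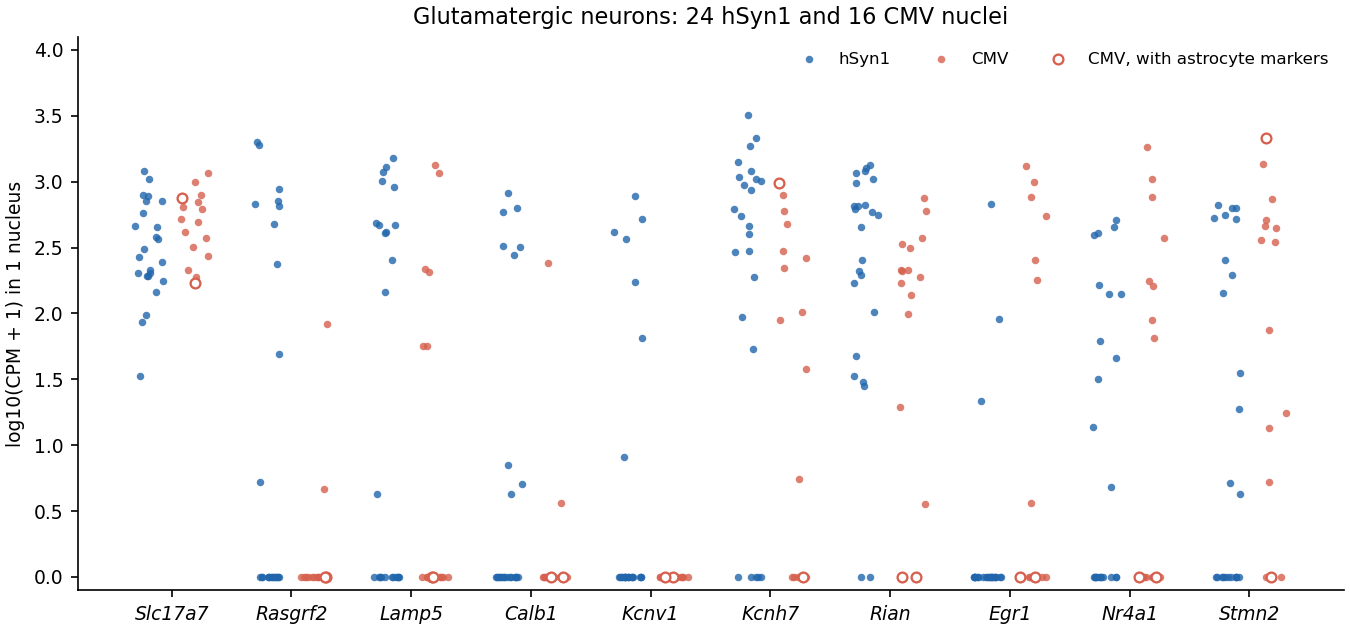
Level of 10 genes, as log10(CPM + 1), in each of the 24 hSyn1 (left of each pair) and 16 CMV glutamatergic nuclei (right), with open circles for the 2 CMV nuclei that also hold astrocyte markers. Rasgrf2 and Kcnv1 are above 0 in more hSyn1 nuclei and Egr1 in more CMV nuclei, while Slc17a7 and Rian are present in nearly all of both.

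Potassium, sodium and calcium channels were called in both directions, at shares close to those of all genes, 18.7% in hSyn1 and 24.1% in CMV. Of 15 potassium channels 3 were higher in each set. Kcnv1, a silent subunit that modifies other channels, was read in 7 hSyn1 nuclei at 99.2 CPM and in no CMV nucleus, 157-fold against the floor. It reached 20 CPM in 6 of 24 hSyn1 nuclei (25%, 9.77 to 46.7%) and in 0 of 16 CMV nuclei, which allows up to 20.6%. Kcnh7 ran from 0 through 502 to 3223 CPM and from 0 through 95.1 to 975 CPM, with sums of 649 and 246 CPM, and was at 437 CPM in the CMV nuclei of S40323. Kcna1, an axonal channel, was at 13.2 and 90.4 CPM. Of 18 sodium and calcium channels 3 were higher in hSyn1 and 4 in CMV, Scn3a at 218.5 and 80.9 CPM and Scn1a at 226 and 488 CPM among them. Gabrd was at 773 and 19.6 CPM, with 72.6% of hSyn1 reads from 1 nucleus.

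Egr1 was read in 3 of 24 hSyn1 and 7 of 16 CMV glutamatergic nuclei, at 28.5 and 239 CPM, 8.38-fold apart. It reached 20 CPM in 3 (12.5%, 2.66 to 32.4%) and 6 (37.5%, 15.2 to 64.6%), and these intervals overlapped. Nr4a1 was at 96.7 and 257 CPM, and Egr3, a related factor, at 123 and 43.0 CPM, in the other direction. Of 8 activity genes 2 were higher in CMV and 1 in hSyn1, against 24.1% and 18.7% of all genes. In the 4 CMV nuclei of S40323 Egr1 was at 377 CPM and Nr4a1 at 281 CPM.

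REST corepressors gave 3 of 7 higher in hSyn1 and none in CMV: Rcor3 at 90.4 and 8.85 CPM, Kdm1a at 175 and 45.1 CPM, and Ehmt1 at 163 and 47.0 CPM. Each was read in 10 hSyn1 nuclei or fewer, and 53.6% of Rcor3 reads in hSyn1 came from 1 nucleus. REST targets gave 2 of 12 higher in hSyn1, Calb1 and L1cam at 98.5 and 40.7 CPM, and Stmn2 higher in CMV, at 412 and 166 CPM.

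Silencing genes gave 4 of 13 higher in CMV and 2 in hSyn1, against backgrounds of 24.1% and 18.7%. Setdb1 was at 30.03 and 104.5 CPM, Morc2a at 69.1 and 166 CPM, and Mphosph8, a member of the HUSH complex, at 90.3 and 204 CPM, while Hdac3 was at 197 and 52.2 CPM. Setdb1 had no read in the CMV nuclei of S40323.

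Of 18 synaptic vesicle genes 3 were higher in hSyn1, Stx1a, a syntaxin, at 295 and 111 CPM among them, and Unc13a, which primes vesicles, was higher in CMV at 202 against 93.7 CPM. Rian was read in 22 of 24 and 14 of 16 nuclei, ran from 0 through 504 to 1328 CPM and from 0 through 199 to 752 CPM, and summed to 492 and 225 CPM. In 6 other vectors with at least 5 glutamatergic nuclei it was at 411 to 1015 CPM, above CMV in each.

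Genes with no read in 1 of the glutamatergic sets led the ranking in both directions. Wdr4, a subunit of a tRNA methyltransferase, Serpinb8, a protease inhibitor, Fbxl4 and Far2 were at 112 to 144 CPM in 7 to 9 hSyn1 nuclei and had no read in CMV. Cdan1, Abcb9, a lysosomal transporter, and Adcy8, an adenylyl cyclase, were at 102 to 124 CPM in 4 to 6 CMV nuclei and had no read in hSyn1. Htra1, a secreted protease, was at 273 CPM in CMV and 8.82 CPM without the 2 astrocyte-marker nuclei, and Slc1a3 at 929 and 11.2 CPM.

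The number of genes detected differed between kinds of nuclei and, within 1 kind, between library series. Counts of each nucleus were drawn down at random to 160000, which left out 2 hSyn1 nuclei and 1 CMV nucleus that were shallower. The median was 2434 genes in hSyn1 (quartiles 1853.5 to 2825.75, n = 38) and 1697 in CMV (1147.5 to 2361.5, n = 39). Glutamatergic nuclei had a median of 2610.5 under hSyn1 and, without astrocyte markers, 2907.5 under CMV, and hSyn1 GABAergic nuclei 2082. The 16 CMV astrocyte-marker nuclei had a median of 1147.5 and a highest value of 1688. With the depth as deposited the medians were 2509 and 1781.5, and in the 8 CMV nuclei of S40323 the thinned median was 2323.5. CMV glutamatergic nuclei by the rule had a thinned median of 2907.5 in S40323 (n = 4) and 2325 in S40324 (n = 12, astrocyte-marker nuclei included). The parts of kind and series were not tested.

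**Figure D5:**
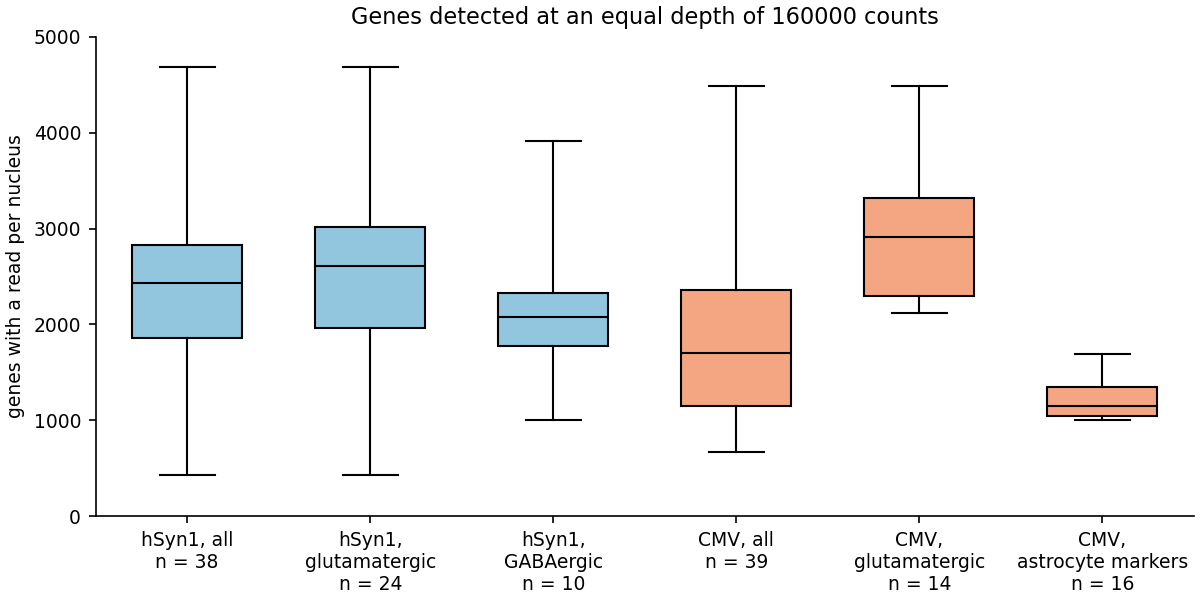
Genes with a read per nucleus after thinning to 160000 counts, as boxes of the median and quartiles with whiskers to the lowest and highest nucleus, where CMV glutamatergic nuclei exclude those with astrocyte markers. The CMV astrocyte-marker box has the lowest median (1147.5) and overlaps the box of all CMV nuclei, which include these nuclei. The glutamatergic boxes of both promoters overlap.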

How the data were processed

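Counts of reads per gene were deposited by the authors for 2501 libraries and 32285 genes; 1701 columns without a label in the samples used here were not analysed. The table was used as raw counts, whole numbers with no normalization. Reads were aligned with STAR 2.7.2a to mm10, per the submitters' processing notes; neither the annotation nor the counting rule is given in the sources used here. SMART-Seq v4 has no molecular identifiers and does not mark strand, so reads are not independent molecules and overlapping genes can share them. Gene positions are from GENCODE M21 (mm10).

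CPM values were computed from each nucleus' total or from the summed counts of a set. Genes were compared at 20 CPM or more in either sum with a read in at least 25% of that promoter's nuclei, and called at a 2-fold difference. For the ratio, a sum under 3 counts was set to a floor of 3 counts. Each promoter is 1 sample, so edgeR and DESeq2 were used for scaling alternatives only and no p-value was computed. Shares carry exact Clopper-Pearson and sums exact Poisson 95% intervals, which cover counting error only. Doublets were not called. All 80 nuclei were kept.

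Genes named are members of gene lists, the leaders in each direction by ratio, and some chosen after their values were seen (Meg3, Snap25, Gria2 and others in the comparison by kind of nucleus). A few genes that the rule would name are not reported here. The members and lists were chosen with earlier results of these data known. Alternatives were other scaling, no filter on low levels, runs of 8 nuclei left out, the CMV nuclei of series S40323, exclusion of astrocyte-marker nuclei and neurons taken by Meg3. The scripts were tested on simulated data. Tools were edgeR 4.0.16 and DESeq2 1.42.0 in R 4.3.3, and pandas 2.3.3, numpy 2.4.6, matplotlib 3.10.9 and scipy 1.17.1 in Python 3.11.15.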

Additional observations from a re-analysis of the deposited data

How the results depend on the processing

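Of 2016 values recomputed under the alternatives, 1866 stayed on their side of the 2-fold threshold and 130 crossed it. The other 20 were at 2-fold or more in the main setting and changed direction. A change of sign in a value under 2-fold in the main setting was not counted as a change of direction. Leaving out a run of 8 nuclei gave 84.4 to 90.6% neurons under hSyn1 and 40.6 to 56.25% under CMV, and 0% and 25 to 46.9% astrocyte-marker nuclei. It gave 830 to 1113 and 524 to 592 genes higher in hSyn1 and in CMV for the whole sets, 825 to 1013 and 875 to 1085 for neurons, and 961 to 1258 and 1207 to 1509 for glutamatergic nuclei. With neurons taken by Meg3, chosen after seeing the data, hSyn1 held 100% neurons. In series S40323 alone the CMV astrocyte-marker share was 12.5%.

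With no filter the genes higher in hSyn1 and in CMV were 4986 and 4108 for the whole sets, 4891 and 3664 for neurons, and 4372 and 3920 for glutamatergic nuclei. With only the CMV nuclei of S40323, 1157 and 1601 were higher in hSyn1 and CMV for the whole sets, so that the excess turned to CMV, 1396 and 2432 for neurons, and 1533 and 2605 for glutamatergic nuclei. Without the astrocyte-marker nuclei, an alternative added after seeing the data, 695 and 860 were higher in hSyn1 and CMV for the whole sets, again an excess for CMV. These settings change how many nuclei or genes enter; the cause was not tested.

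Log2 ratios of hSyn1 to CMV that were at 2-fold or more in the main setting and changed direction are these. In S40323, for the whole sets, Slc1a2 was at 0.33, Grin2a at -0.13 and Syp at -0.024. For neurons of that series Slc1a3 was at 3.02, Msmo1 at 3.71, Cux1 at -0.021 and Setdb1 at 3.68. For its glutamatergic nuclei Slc1a3 was at 3.57 and Setdb1 at 3.50. In both, the CMV set was the same 4 nuclei, whose sums of Slc1a3, Msmo1 and Setdb1 were at the floor of 2.65 CPM. Those ratios therefore set the hSyn1 level against the floor. Without astrocyte-marker nuclei Slc1a3 was at 1.40, Aldoc at 1.70, Ntsr2 at 7.27 and Slc1a2 at 1.15 for the whole sets. The CMV sum of Ntsr2 was then at the floor. In the same setting Slc1a3 was at 1.12 for neurons and 1.48 for glutamatergic nuclei. By Meg3, Slc1a3 was at 1.32. With runs of 8 left out, in neurons Sv2b ran from -1.62 to 0.23 and Neurod6 from -1.54 to 1.002, and in glutamatergic nuclei Morc2a from -1.50 to 0.055 and Setdb1 from -2.24 to 1.04. The highest values came without CMV numbers 9 to 16, and for Setdb1 without 17 to 24.

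No paired analysis was possible because each promoter is 1 sample, the results come from no test, and shared title numbers name no shared animal or plate. The 40 nuclei per promoter set the precision of the shares, and a gene with no read in a sum is below detection at its depth.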
